A study of Mus musculus with 16 samples.

Results

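The lysyl oxidases and the contractile genes of myofibroblasts were followed in bulk RNA-seq of mouse knee joint cells before and after ligament injury. The members were chosen by name: Lox, Loxl1, Loxl2, Loxl3 and Loxl4 are the lysyl oxidases, and Acta2, Tagln, Cnn1 and Myl9 are the contractile genes. They and the gene lists below were chosen with earlier results of these data known. Their counts beside the shares over all genes are therefore descriptions. All 9 were found among the 13733 genes listed, and all 9 passed the filter on low values, a normalized level of at least 1 CPM (reads scaled for library size) in at least 4 libraries. The lowest read number of a member in any library was 152, so counting error was small beside the spread between libraries. The series holds 16 libraries, 4 in each of 4 groups. The WT groups are C57BL/6 mice, and the Trem2-/- groups are knockout mice on that background that lack Trem2, a surface receptor of myeloid cells, in every cell. D0 groups were uninjured, and D7 groups were collected 7 days after a single compressive overload of the tibia, which tears the anterior cruciate ligament, at 10 weeks of age. No other allele is named for any group. The paper's methods name buprenorphine in saline, a painkiller given right after the overload, so the D7 groups received an agent that is not named for the D0 groups, and its part cannot be told apart from that of the injury. The labels also hold an age of 16 weeks and a protocol for homogenized joints from another kind of experiment, whereas the paper describes cells released by enzymes from male mice. Whether these cells were enriched for leukocytes is not stated, so the share of stromal cells that entered the libraries is unknown. The labels number the libraries of a group 1 to 4 without saying that each is a separate mouse, so the p-values measure the spread between libraries, which may in part be technical. In bulk samples, fewer cells of a type and less RNA per cell cannot be told apart.

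Lysyl oxidases are secreted copper enzymes that oxidize lysine residues of collagen and elastin, and the aldehydes they form join neighbouring molecules into crosslinks. Lox and Loxl1 are made with a long propeptide that proteinases remove, while Loxl2, Loxl3 and Loxl4 carry scavenger receptor domains in its place. A myofibroblast is a fibroblast that lays down matrix and builds stress fibres of smooth muscle actin, the product of Acta2. The same contractile genes are strongly expressed by vascular smooth muscle cells and pericytes, and serum response factor (SRF) with its coactivators drives them through a short element, the CArG box.

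The start regions of the members were read because the contractile genes are textbook targets of SRF. Of the 9 members, 4 had a promoter in the RefSeq table of GRCm38.p6 that was used, namely Acta2, Myl9, Cnn1 and Loxl4. The promoters of Lox, Loxl1, Loxl2, Loxl3 and Tagln were not in it. In the 250 bases before the RefSeq start, Myl9 held 1 CArG box and 1 further match with a C or G among its central bases, and Acta2 held 2 matches of the latter kind. Cnn1 and Loxl4 held no match to either in this window. The 4 stretches of 30 bases follow, 5′ to 3′ on the gene's strand, with the match in capitals and its first base counted back from the start.
Acta2, match 84 bases before the start, chr19:34255438-34255467, minus strand: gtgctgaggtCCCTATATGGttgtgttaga
Acta2, match 34 bases before the start, chr19:34255388-34255417, minus strand: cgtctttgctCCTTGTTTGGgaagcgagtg
Myl9, match 161 bases before the start, chr2:156775293-156775322, plus strand: caagcagaggCCTAATAAGGccgggctggc
Myl9, match 99 bases before the start, chr2:156775355-156775384, plus strand: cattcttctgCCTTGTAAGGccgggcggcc
A CArG box is its own reverse complement in form, so 1 strand covers both. Of 32851 promoters searched over the same length, 1.47% held a CArG box and 7.24% held the form with 1 C or G. GGAATG, the letters that TEAD factors bind, searched on both strands, stood 146 bases before the start of Acta2 and in 12.6% of all promoters, and in none of the other 3. The GENCODE span of Acta2 begins further upstream than the RefSeq start and covers both Acta2 stretches. These matches describe the letters in a window and say nothing of binding in these cells.

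The members lie apart on the genome. In the GENCODE M21 annotation of GRCm38, Lox spans chromosome 18 from 52516067 to 52529867, Loxl1 chromosome 9 from 58287738 to 58313186 and Loxl2 chromosome 14 from 69609068 to 69695834. Loxl3 spans chromosome 6 from 83034173 to 83052562, and Loxl4 chromosome 19 from 42593982 to 42612813. Acta2 spans chromosome 19 from 34241090 to 34255590, Tagln chromosome 9 from 45929619 to 45936058, Cnn1 chromosome 9 from 22099216 to 22109630 and Myl9 chromosome 2 from 156775420 to 156781658. Reads of 3 of these genes could be misplaced. Loxl2 shares 42.7% of its 75-base stretches with the gene model Gm21451, so its counts are uncertain. Exons of Tagln share 1349 of 1988 bases with the genes Pcsk7 and Gm48529 on the opposite strand, and exons of Loxl3 share 535 of 4603 bases with Htra2. Whether the counting used strand is not stated, so reads of such partners cannot be told apart from those of Tagln and Loxl3.

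Reads on listed genes ranged from 11567073 to 32867818 per library (median 16399898). The targeted gene Trem2, read 15.1, 22.5, 18.9 and 10.7 CPM in the WT D7 libraries and 4.13, 4.69, 3.42 and 4.84 in the Trem2-/- D7 libraries. At D0 it read 2.51, 4.88, 5.26 and 5.61 in WT and 1.88, 0.948, 2.68 and 1.70 in Trem2-/- libraries, so the D0 ranges overlapped and the D7 ranges did not. Among marker genes of joint tissues, those of cartilage, fibroblasts, endothelium, pericytes and leukocytes were all detected in every group, and none of the defining markers was at 0 in a group. The group means of Pecam1, an endothelial marker, ran from 646 to 731 CPM, those of Pdgfra, a fibroblast marker, from 49.4 to 161 CPM, and those of Ptprc, which encodes CD45, from 173 to 633 CPM.

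All 5 lysyl oxidases rose after injury in WT joints, by 3.35- to 7.87-fold, and no contractile gene did. The comparison asks which genes of matrix crosslinking and of contraction differed between uninjured joints and joints at D7. By the rule of the study's methods, applied to limma's fit, a gene counts as called when its unadjusted p is under 0.05 and its fold change exceeds 1 by more than 25% in either direction. By this rule 5 of the 9 members were called in WT, all of them lysyl oxidases and all higher, where 19.3% of all 13173 genes tested were called higher and 37.4% in either direction. All 5 also had a Benjamini-Hochberg adjusted p under 0.05, against 15.9% of all genes on the higher side. Fold changes are on the log2(value + 1) scale, which understates those of genes with low values. The limma fit pools the spread of a gene over all 4 groups, so its SE is the same in every comparison of 2 groups. That SE, the interval and the limma p-value thus also hold the spread of libraries outside the comparison.

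Lox, the founding member of the family, read 294, 55.1, 159.7 and 536 CPM in the 4 WT D0 libraries and 744, 947, 616 and 936 CPM in the 4 WT D7 libraries. The D0 libraries spread over a wide range, yet all of them lay below all D7 libraries. Its log2 fold change was 2.04 (SE 0.47, adjusted p = 0.00631, limma with Benjamini-Hochberg adjustment). Loxl1, an enzyme linked to elastic fibres, read 87.1, 20.7, 39.5 and 114 CPM at D0 and 192, 308, 124 and 150.0 CPM at D7. The closest values of the 2 groups were 114 and 124, and the log2 fold change of 1.75 was the smallest of the family (SE 0.46, adjusted p = 0.0129, limma).

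Loxl2, a family member that also acts on basement membrane collagen, read 66.5, 23.9, 40.2 and 138 CPM at D0 and 329, 359, 274 and 303 CPM at D7. The D7 libraries were close together, and the log2 fold change was 2.50 (SE 0.35, adjusted p = 0.000615, limma). Loxl3, needed for the skeleton and palate to form, read 46.0, 12.9, 25.9 and 106 CPM at D0 and 336, 249.8, 255 and 334 CPM at D7. It had the largest change of the 9 members, a log2 fold change of 2.98 (SE 0.41, adjusted p = 0.000572, limma). Loxl4 read 38.4, 7.26, 51.8 and 66.8 CPM at D0 and 175, 119.8, 108 and 226 CPM at D7, a log2 fold change of 2.21 (SE 0.51, adjusted p = 0.00721, limma). For each of the 5 genes every D7 library lay above every D0 library (exact two-sided permutation test over 70 assignments, p = 0.0286 for each, the smallest that 4 against 4 allow). Such separation on the higher side was found for 12.9% of all genes. Without WT D0 replicate 2 all 5 were still called, with smaller log2 fold changes, of which those of Lox (1.44) and Loxl4 (1.54) moved most. Among the 13173 genes, ranked from the highest log2 fold change, Loxl3 stood at 23, Loxl2 at 55, Loxl4 at 87, Lox at 118 and Loxl1 at 211.

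In Trem2-/- joints the same 5 genes rose by 5.16- to 11.1-fold. There 6 of the 9 members were called, 5 higher and 1 lower, where 26.5% of all genes were called higher, 27.9% lower and 54.5% in either direction. The 5 lysyl oxidases also passed adjustment, against 26% of all genes on the higher side. Lox read 112, 77.6, 136 and 126 CPM at D0 and 1129, 965, 1177 and 1037 CPM at D7, a log2 fold change of 3.27 (SE 0.47, adjusted p = 6.16e-05, limma). The D0 libraries were close together, unlike those of WT. Loxl1 read 62.8, 51.0, 21.0 and 66.9 CPM at D0 and 301, 228, 228 and 221 CPM at D7, a log2 fold change of 2.37 (SE 0.46, adjusted p = 0.000602, limma). Replicate 1 stood above the other 3 D7 libraries.

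Loxl2 read 35.8, 39.5, 27.3 and 37.8 CPM in the Trem2-/- D0 libraries and 387, 317, 340.4 and 317 CPM in the D7 libraries, a log2 fold change of 3.25 (SE 0.35, adjusted p = 1.50e-05, limma). Loxl3 read 21.7, 26.7, 21.1 and 26.3 CPM at D0 and 276, 255, 297 and 273 CPM at D7, a log2 fold change of 3.48 (SE 0.41, adjusted p = 2.14e-05, limma). Both genes were tight within each Trem2-/- group, while their SEs also hold the wide spread of the WT D0 libraries. Loxl4 read 17.3, 25.6, 17.2 and 14.8 CPM at D0 and 179, 122, 205 and 70.6 CPM at D7, a log2 fold change of 2.80 (SE 0.51, adjusted p = 0.000410, limma), and its D7 libraries differed most among themselves. In this genotype too, every D7 library lay above every D0 library for each of the 5 genes (exact permutation test, p = 0.0286 for each), as it did for 26.1% of all genes. Loxl3 stood at 54, Lox at 66, Loxl2 at 71, Loxl4 at 129 and Loxl1 at 217 of 13173.

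**Figure D1:**
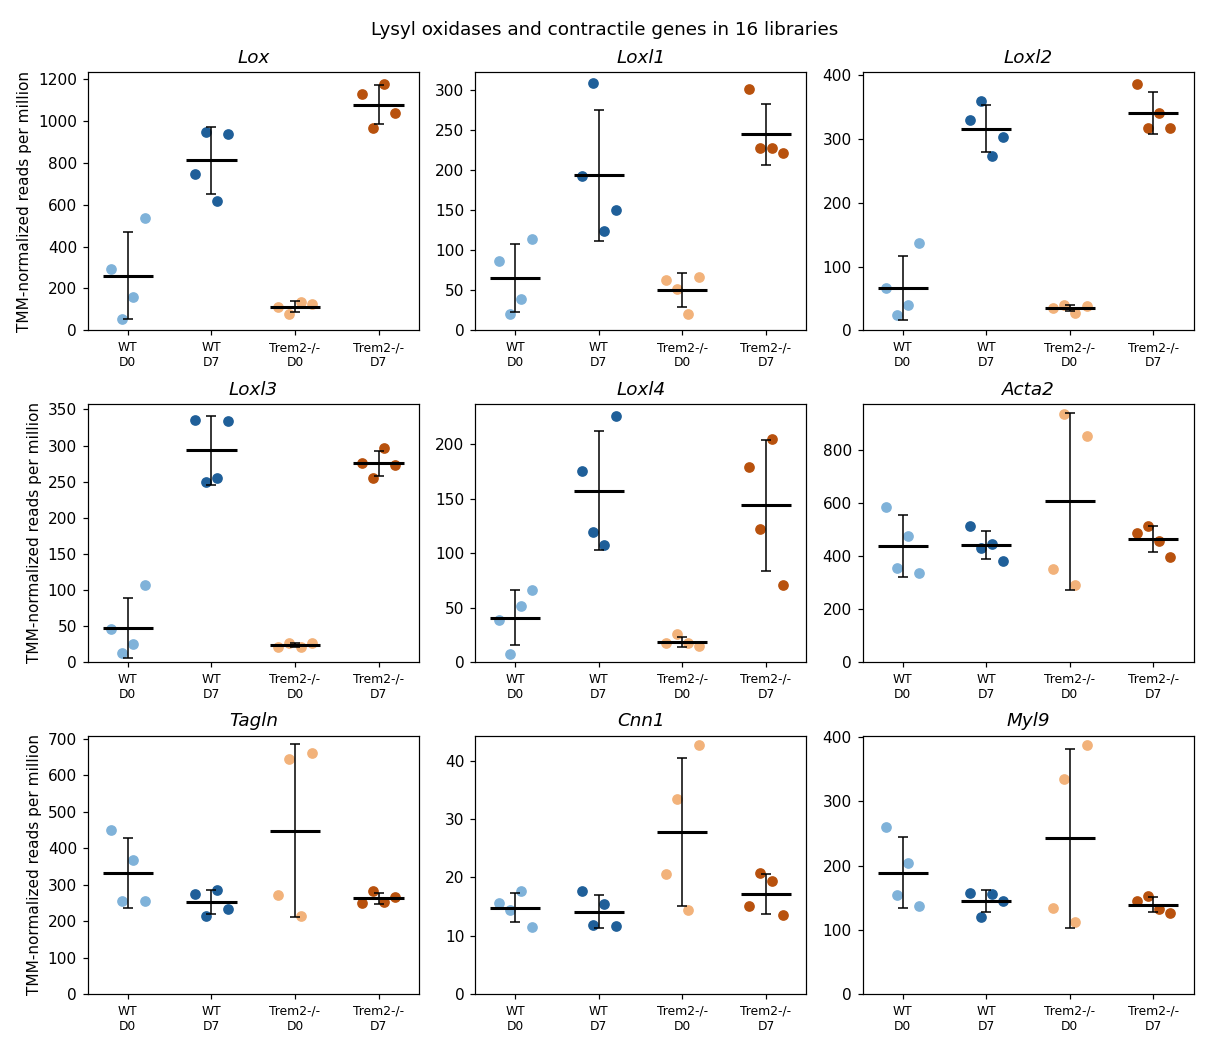
Each panel plots one member's normalized CPM (linear axis from 0) in every library of the 4 groups as points, with the group mean as a line and the SD over 4 libraries as a bar. The lysyl oxidases sit apart at D0 and D7 in both genotypes (Lox 55.1 to 536 against 616 to 947 CPM in WT), whereas the contractile genes overlap (Acta2 336 to 582 against 382 to 512 CPM in WT).

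None of the 4 contractile genes was called higher after injury. Acta2, which encodes smooth muscle alpha-actin and is the usual marker of a myofibroblast, read 582, 354, 476 and 336 CPM at WT D0 and 512, 429, 444 and 382 CPM at WT D7. The D7 range lay inside the D0 range, and the log2 fold change was 0.04 with a 95% interval from -0.62 to 0.71 (adjusted p = 0.930, limma). In Trem2-/- joints it read 349, 933, 290.4 and 852 CPM at D0 and 487, 513, 455 and 397 CPM at D7, a log2 fold change of -0.21 with an interval from -0.87 to 0.46 (adjusted p = 0.592, limma). The Trem2-/- D0 libraries fell into a high pair, replicates 2 and 4, and a low pair, with all D7 libraries between them.

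Tagln, which encodes transgelin, an actin-binding protein of smooth muscle, read 450.5, 255, 368 and 255 CPM at WT D0 and 275, 214, 285 and 233 CPM at WT D7. Its log2 fold change was -0.36 (interval -1.01 to 0.29, adjusted p = 0.376, limma). In Trem2-/- joints it read 272, 644, 215 and 659.6 CPM at D0 and 248, 283, 252 and 266 CPM at D7, a log2 fold change of -0.60 (interval -1.25 to 0.05, adjusted p = 0.112, limma). The ranges overlapped in both genotypes.

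Myl9, the regulatory light chain of smooth muscle myosin, read 259.7, 154, 205 and 137 CPM at WT D0 and 158, 121, 156 and 145 CPM at WT D7, a log2 fold change of -0.34 (interval -1.03 to 0.35, adjusted p = 0.436, limma). In Trem2-/- joints it read 134, 335, 111 and 388 CPM at D0 and 145, 153, 132 and 127 CPM at D7, a log2 fold change of -0.60 (interval -1.29 to 0.10, adjusted p = 0.134, limma). Replicates 2 and 4 again held the high D0 values.

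Cnn1, calponin 1 of differentiated smooth muscle, was the lowest of the 4 in CPM. It read 15.6, 14.4, 17.6 and 11.5 CPM at WT D0 and 17.6, 11.8, 15.4 and 11.7 CPM at WT D7, a log2 fold change of -0.07 (interval -0.63 to 0.50, adjusted p = 0.866, limma). In Trem2-/- joints it read 20.6, 33.4, 14.4 and 42.7 CPM at D0 and 15.1, 20.7, 19.3 and 13.5 CPM at D7. It was called lower there, by a log2 fold change of -0.57 (interval -1.13 to -0.01, unadjusted p = 0.0476 and adjusted p = 0.0815 from limma), while the D0 and D7 ranges overlapped. The call was lost in 10 of the 16 fits that left out 1 library, with the smallest log2 fold changes without Trem2-/- D0 replicate 4 (-0.33) and replicate 2 (-0.45). Without Trem2-/- D0 replicate 1, Tagln, Myl9 and Cnn1 were all called lower. Without replicate 3 the same 3 genes also passed adjustment, which brought the number of members that did from 5 to 8. In the fit of all libraries 53.2% of all genes passed it. With every library in, edgeR also called Tagln (-0.77, unadjusted p = 0.0230) and Myl9 (-0.80, unadjusted p = 0.0258) lower. Limma after quantile normalization called Tagln lower (-0.64, unadjusted p = 0.0489).

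**Figure D2:**
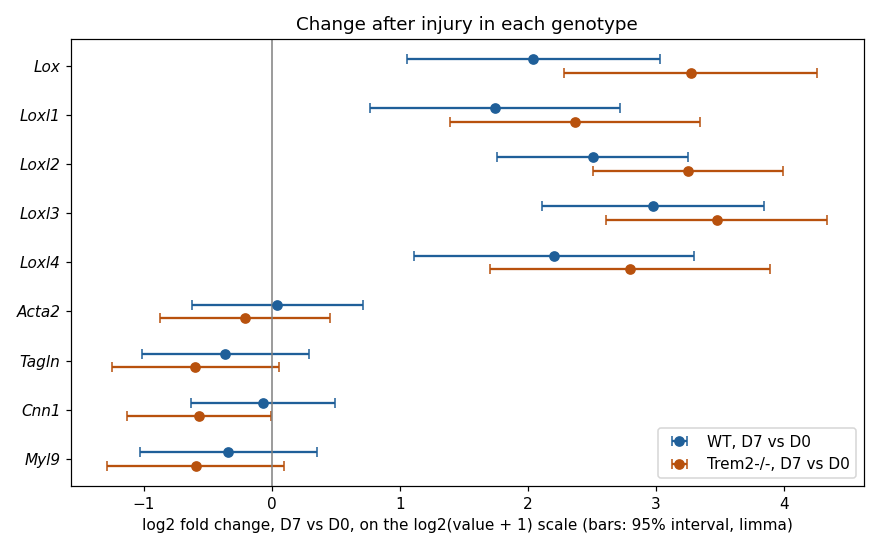
The points are the log2 fold changes of D7 against D0 in each genotype from limma, and the bars are 95% intervals. The lowest bound of a lysyl oxidase was 0.77 in WT, and the intervals of all contractile genes include 0 except that of Cnn1 in Trem2-/- (-1.13 to -0.01).

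In the order of the levels, Lox moved up with injury. Per kb of exon, with levels as means of CPM per kb, Acta2 stood first at WT D0 with 199, followed by Tagln with 167, Myl9 with 162, Lox with 54.6, Loxl1 with 19.8, Loxl2 with 12.4, Loxl3 with 10.4, Loxl4 with 9.75 and Cnn1 with 5.41. Only between Myl9 and Lox did neighbours in this order have ranges that did not overlap. At WT D7 the order was Acta2 with 201, Lox with 170, Tagln with 127, Myl9 with 125, Loxl3 with 63.8, Loxl1 with 58.7, Loxl2 with 58.5, Loxl4 with 37.4 and Cnn1 with 5.17. The gaps between Myl9 and Loxl3 and between Loxl4 and Cnn1 were then the ones without overlap, and Lox had joined the 3 abundant contractile genes.

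At Trem2-/- D0 the order per kb was Acta2 with 276, Tagln with 225, Myl9 with 208, Lox with 23.6, Loxl1 with 15.3, Cnn1 with 10.1, Loxl2 with 6.49, Loxl3 with 5.20 and Loxl4 with 4.44, again with no overlap between Myl9 and Lox alone. At Trem2-/- D7 it was Lox with 225, Acta2 with 211, Tagln with 132, Myl9 with 120, Loxl1 with 74.2, Loxl2 with 62.9, Loxl3 with 59.8, Loxl4 with 34.2 and Cnn1 with 6.27. There the ranges of Lox and Acta2 overlapped, as did those of Tagln and Myl9, of Loxl1 and Loxl2, and of Loxl2 and Loxl3, and the other neighbours did not. Within single libraries the ratio of Lox to Acta2 per kb ran from 0.0715 to 0.732 at WT D0 and from 0.0383 to 0.215 at Trem2-/- D0. At D7 it ran from 0.639 to 1.13 in WT and from 0.865 to 1.20 in Trem2-/-, with Lox above Acta2 in 2 of 4 and 3 of 4 libraries.

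Summed per kb, the 5 lysyl oxidases came to 107 ± 79.0 CPM per kb (SD, n = 4) at WT D0, 388 ± 63.6 at WT D7, 55.0 ± 6.52 at Trem2-/- D0 and 457 ± 46.6 at Trem2-/- D7. The make-up of this sum changed less than its size. Lox held 48.7% ± 4.53 of it at WT D0 and 43.6% ± 2.71 at WT D7, and 43.2% ± 11.2 and 49.4% ± 2.00 in Trem2-/-. The share of Loxl3 rose from 9.43% ± 1.50 to 16.7% ± 3.00 in WT and from 9.51% ± 1.36 to 13.2% ± 0.910 in Trem2-/- joints, with no overlap between D0 and D7 in either (exact permutation test, p = 0.0286 for each). At D7 the share of Lox was 47.1% to 51.8% in Trem2-/- and 40.0% to 46.2% in WT libraries (exact permutation test, p = 0.0286). These 3 were the separations among 20 comparisons of shares, with p-values not adjusted. Loxl2's part rests on counts that its partner Gm21451 may share.

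**Figure D3:**
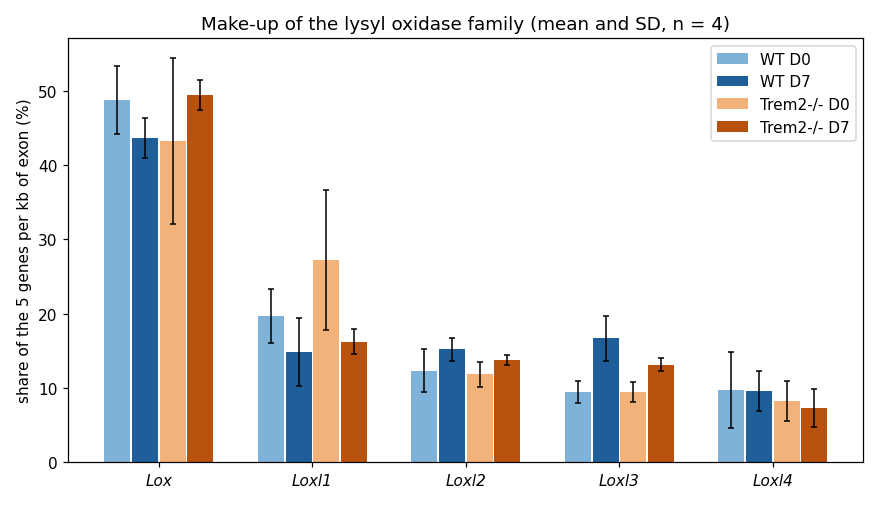
Bars give each lysyl oxidase's share, in percent, of the family's summed level per kb of exon in each group, as mean and SD over 4 libraries. Lox takes 43.2% to 49.4% in every group, and Loxl3 is higher at D7 than at D0 in both genotypes.

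The genotypes were set against each other at each time, and the WT and Trem2-/- libraries at a given time enter more than one of these comparisons. At D7 no member was called in Trem2-/- against WT by limma, and none had an unadjusted p under 0.05, where 5.72% of all genes were called in either direction, 958 genes had such a p and 0 passed adjustment. edgeR and voom on the recovered reads called 0 members as well. Lox was the one member whose groups did not overlap, 965 to 1177 CPM in Trem2-/- against 616 to 947 CPM in WT (exact permutation test, p = 0.0286), and 8.33% of all genes were separated in either direction. Its log2 fold change was 0.43 with an interval from -0.56 to 1.42 (adjusted p = 0.889, limma with all groups in the fit). With only the D7 groups in the fit it was called, at an unadjusted p of 0.0189. The log2 fold changes of the other 8 ran from -0.17 for Loxl4 to 0.41 for Loxl1. In the same comparison 6 of 7 leukocyte markers were called lower in Trem2-/-, as were 4.53% of all genes, with a median log2 fold change of -0.64 and a summed level of 1284 to 1644 CPM against 1632 to 3627 CPM in WT, and its part in the value of Lox was not tested.

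At D0, Cnn1 was called higher in Trem2-/- than in WT, with 27.8 ± 12.7 against 14.8 ± 2.55 CPM (SD, n = 4), where 2.15% of all genes were called in either direction and 0.782% higher. Its log2 fold change was 0.76 (interval 0.20 to 1.33, unadjusted p = 0.0110 and adjusted p = 0.9996 from limma), and the ranges overlapped (exact permutation test, p = 0.114). The other 3 contractile genes had log2 fold changes from 0.20 to 0.32 and were not called. The lysyl oxidases had log2 fold changes from -0.80 for Lox to -0.21 for Loxl1 and were not called either. This depended on 1 library and on the method. Without WT D0 replicate 2, which held the lowest value of every lysyl oxidase, Lox (-1.40), Loxl2 (-1.02), Loxl3 (-1.05) and Loxl4 (-1.43) were called lower in Trem2-/-, and 5 members instead of 1 were called. With all libraries 1.37% of all genes were called lower, and no such share is given for fits with 1 library left out. Without WT D0 replicate 2 the lysyl oxidase substrates called lower also went from 1 to 5 of 8. edgeR with all libraries also called 5, the same 4 lysyl oxidases and Cnn1, where it called 466 of 13173 genes. Without Trem2-/- D0 replicate 3, 3 members were called, namely Acta2, Tagln and Cnn1.

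The difference in injury response between the genotypes was tested by the interaction of genotype and injury. No member was called by limma, and none had an unadjusted p under 0.05, where 7.79% of all genes were called, 1075 genes had such a p and 0 passed adjustment. The 5 lysyl oxidases had differences from 0.50 for Loxl3 to 1.23 for Lox on the log2 scale, larger in Trem2-/-, and the 4 contractile genes from -0.50 for Cnn1 to -0.23 for Tagln. For Lox the interval ran from -0.17 to 2.63 (unadjusted p = 0.0808, limma). edgeR called 1 member, Lox, and voom called 0. Without WT D0 replicate 2, Lox (1.83), Loxl2 (1.13), Loxl3 (0.97) and Loxl4 (1.26) were called, which made 4. Without Trem2-/- D0 replicate 3, Cnn1 was, with -0.77. Other lists also moved without WT D0 replicate 2. Calls larger in Trem2-/- went from 0 to 5 of 8 lysyl oxidase substrates. They went from 1 to 6 of 8 genes of collagen lysine hydroxylation and stayed at 0 for pericyte markers. The 7.79% is from the fit of all libraries, and no such share is given for fits with 1 library left out. The calls of the interaction thus changed with single D0 libraries.

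That spread differed between the 2 kinds of gene. At WT D0 the SD of the log2 values ran from 1.06 to 1.39 over the 5 lysyl oxidases and from 0.24 to 0.41 over the 4 contractile genes, beside a median of 0.27 over all genes. At Trem2-/- D0 it was 0.17 to 0.75 for the lysyl oxidases and 0.67 to 0.91 for the contractile genes, beside 0.24 over all genes. At D7 the lysyl oxidases had 0.17 to 0.57 in WT and 0.09 to 0.68 in Trem2-/-, and the contractile genes 0.17 to 0.27 and 0.09 to 0.27. The D0 libraries of WT thus stood apart from each other in crosslinking enzymes, and those of Trem2-/- in contractile genes.

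The contractile genes deviated alike from library to library, and the lysyl oxidases less closely so. Over the 16 libraries, as deviations from the group means on the log2 scale, Pearson's r was 0.87 to 0.98 among the 6 pairs of contractile genes and 0.52 to 0.96 among the 10 pairs of lysyl oxidases. Between the kinds it was -0.27 to 0.35 over 20 pairs. Spearman's rho was 0.83 to 0.96 among the contractile genes, 0.29 (Loxl1 with Loxl4) to 0.93 among the lysyl oxidases and -0.50 to 0.32 between the kinds. These are descriptions over libraries that share their depth and their cell mixture, with no test. Of 10551 genes whose mean reached 5 CPM, those most like Lox by this measure were Kdelr2 (0.94), a receptor that returns proteins to the endoplasmic reticulum, Chsy3 (0.94), a chondroitin synthase, and Mest (0.94). Those most like Acta2 were Jph2 (0.98), a junction protein of muscle membranes, and the members Myl9 (0.97) and Tagln (0.97).

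Markers of other cells also deviated in some of these libraries. At WT D0, replicate 4 was the highest and replicate 2 the lowest in all 5 lysyl oxidases, with mean deviations of 1.29 and -1.54 on the log2 scale. The 7 cartilage markers deviated by 1.75 and -2.68 in the same libraries and the 9 fibroblast markers by 0.68 and -0.84. In WT D0 replicate 3 the cartilage markers stood at 0.87 and the lysyl oxidases at -0.18. In Trem2-/- D0 replicates 2 and 4 the cartilage markers deviated by 1.47 and -1.09. The lysyl oxidases stood at 0.09 and 0.13 there. The summed cartilage markers ranged from 696 to 12480 CPM at WT D0 and from 1018 to 3894 CPM at Trem2-/- D0, and from 28418 to 72143 and 26605 to 41029 CPM at D7. At Trem2-/- D0, replicates 2 and 4 were high in the contractile genes, by 0.64 and 0.75, and replicates 1 and 3 low, by -0.52 and -0.86. The 10 pericyte and vascular smooth muscle markers deviated by 0.40, 0.58, -0.51 and -0.47 in these libraries and the 7 endothelial markers by 0.36, 0.53, -0.58 and -0.31. The 11 skeletal muscle markers deviated by 0.06, 0.68, -0.16 and -0.58. In WT D0 replicates 1 to 4 the contractile genes stood at 0.38, -0.22, 0.19 and -0.35. The skeletal muscle markers stood at 0.51, -0.42, 0.73 and -0.83 there, and the pericyte markers at 0.67, -0.62, -0.15 and 0.10. The part of these cells in the members' values was not tested.

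**Figure D4:**
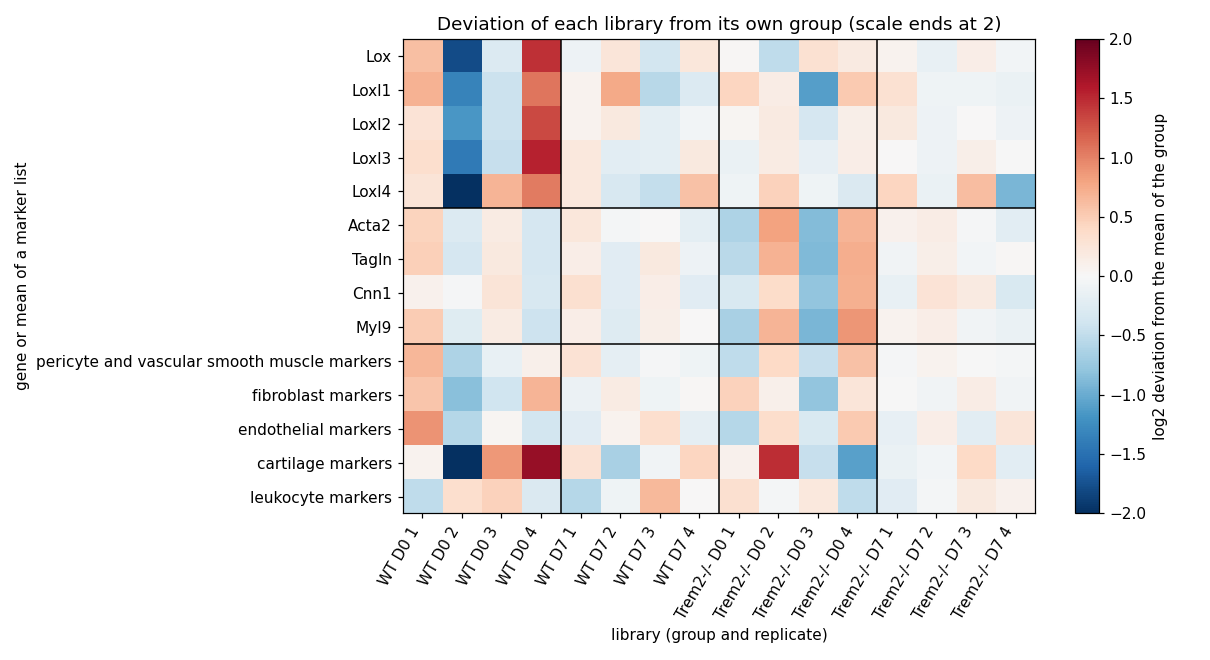
Colours give each library's deviation from its group mean on the log2 scale for the 9 members and for the means of 5 marker lists, and the colour scale ends at 2. The lysyl oxidases share high WT D0 replicate 4 and low WT D0 replicate 2 with cartilage markers, and the contractile genes share high Trem2-/- D0 replicates 2 and 4 with pericyte markers. In those 2 Trem2-/- D0 libraries the cartilage markers deviated by 1.47 and -1.09, and the lysyl oxidases by means of 0.09 and 0.13.

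The substrates of the lysyl oxidases rose with them. All 8 listed substrate genes were called higher in both genotypes, with a median log2 fold change of 2.68 in WT and 4.02 in Trem2-/-, where the median of all genes was -0.04 in each. Of all genes, 19.3% were called higher in WT and 26.5% in Trem2-/-. Col5a1, a chain of the collagen that starts fibrils, rose from 935 ± 1053 to 4908 ± 972 CPM in WT (SD, n = 4; log2 fold change 2.99, adjusted p = 0.00146, limma), and Col1a1, a chain of the main bone and tendon collagen, had a log2 fold change of 2.85, as did Col3a1. Eln, the elastin gene, had 1.57 in WT and 1.12 in Trem2-/-. Of 8 genes that hydroxylate or glycosylate the lysines, or assist those enzymes, 7 were called higher in WT (median 1.76) and 8 in Trem2-/- (median 2.33). Among them Plod2, a lysyl hydroxylase of collagen ends, had 2.84 in WT and 3.59 in Trem2-/-, Fkbp10, its chaperone, 2.59 and 3.70, and P3h4 2.53 and 3.29.

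Of 12 genes tested that process lysyl oxidases, hold them on matrix or supply copper, 7 were called higher in WT (median 0.88). In Trem2-/-, 9 were called higher and 1 lower (median 1.58). The shares over all genes were 19.3% higher in WT, and 26.5% higher and 27.9% lower in Trem2-/-. Fn1, fibronectin, on which Lox is processed, had a log2 fold change of 2.36 in WT and 2.62 in Trem2-/-, and Postn, periostin, 2.30 and 4.23. Efemp2, the fibulin that brings Lox to elastin, had 2.10 and 2.70, and Pcolce, the enhancer of procollagen proteinase, 1.92 and 2.54. Bmp1, the proteinase that removes the Lox propeptide, had 1.85 and 2.54. Of the copper carriers, Slc31a1 was called higher in both, by 0.59 and 0.88, while Atp7a, which loads copper onto secreted enzymes, had 0.21 and 0.07 and was not called. Thbs1, thrombospondin 1, was the gene called lower in Trem2-/-, by -0.99, and had -0.58 in WT.

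Matrix genes that mark myofibroblasts in single-cell studies also rose. In WT 7 of 10 were called higher (median 2.22), and in Trem2-/- 9 of 10 (median 4.19), where 19.3% and 26.5% of all genes were. Cthrc1 had log2 fold changes of 3.41 and 5.97, Adam12 of 3.33 and 5.27, Tnc of 2.76 and 4.29 and Col12a1 of 2.52 and 4.14. At WT D0 the libraries of these genes spread widely, from 3.78 to 119.6 CPM for Cthrc1, 6.69 to 119 CPM for Adam12, 213 to 3057 CPM for Postn and 174 to 2256 CPM for Col12a1. By the interaction test 6 of the 10 were called larger in Trem2-/-, Postn, Cthrc1, Adam12, Lrrc15, Cdh11 and Col12a1, none with an adjusted p under 0.05 in limma, where 2.77% of all genes were called larger. Single libraries moved this count, to 3 without WT D7 replicate 3, 4 without Trem2-/- D0 replicate 4 and 9 without WT D0 replicate 2. At D0, 5 of the 10 were called lower in Trem2-/- and none higher, where 1.37% of all genes were called lower. That count was 0 without WT D0 replicate 4, 2 without Trem2-/- D0 replicate 3 or 4, 3 without WT D0 replicate 1 and 9 without WT D0 replicate 2. In the same comparison 4 of 7 cartilage and 2 of 5 osteoblast markers were called lower in Trem2-/-, and their part in it was not tested.

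The rest of the contractile apparatus was mixed. Of 20 further genes, 4 were called higher and 1 lower in WT (median -0.05), where 19.3% of all genes were called higher and 18.2% lower. In Trem2-/- 5 were called higher and 8 lower (median -0.34), where 26.5% were called higher and 27.9% lower, so the counts on the higher side were near the background in both genotypes. Leaving out single libraries gave 2 to 6 higher and 0 to 3 lower in WT, the 2 without WT D0 replicate 3 or WT D7 replicate 2 and the 3 without WT D0 replicate 4 or WT D7 replicate 3. In Trem2-/- the lower count was 6 without Trem2-/- D0 replicate 2 or 4 and 11 without replicate 3. Higher in WT were Actg2, smooth muscle gamma-actin, with 1.11, Smtn, smoothelin, with 0.92, Cald1, caldesmon, with 0.66, and Myh10, a non-muscle myosin, with 0.33. Cnn2, the calponin of non-muscle cells and leukocytes, was lower, with -0.57. Myh11, the smooth muscle myosin heavy chain, had -0.41 in WT, not called, and -0.97 in Trem2-/-, where it was called. The lower genes in Trem2-/- also included Actb (-1.22), Cnn2 (-0.91), Myh9 (-0.67), Ppp1r12a (-0.64) and Flna (-0.41), which leukocytes express too, and Lmod1 (-0.93) and Synpo2 (-0.78), which are genes of muscle. The 7 leukocyte markers were all called lower at D7 in both genotypes (median -0.82 in WT and -1.84 in Trem2-/-), and their part in these changes was not tested.

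Srf itself had log2 fold changes of 0.01 in WT and -0.12 in Trem2-/-, neither called. The list around it holds 9 tested genes, SRF and its coactivators together with genes of the TEAD factors. Of these, 4 were called higher in WT (median 0.48) and 5 higher and 1 lower in Trem2-/- (median 0.68). Over all genes 19.3% were called higher in WT, and 26.5% higher and 27.9% lower in Trem2-/-. The 4 called in WT were Fhl2, Vgll3, Tead1 and Wwtr1. Fhl2, a cofactor that SRF also targets, had 1.72 in WT and 2.20 in Trem2-/-. Vgll3, a cofactor of TEAD proteins, had 1.04 and 1.46, Tead1 0.85 and 1.27, and Wwtr1, which encodes TAZ, 0.68 and 1.19. Myocd, the coactivator particular to muscle, had -0.13 in WT and was called lower in Trem2-/-, with -0.71. That call was lost without Trem2-/- D0 replicate 2 or 4, or without Trem2-/- D7 replicate 1 or 4. The SRF coactivator genes listed as Mkl1 and Mkl2 had 0.05 and 0.48 in WT, neither called, and 0.04 and 0.68 in Trem2-/-, where Mkl2 was called higher (adjusted p = 0.0249, limma).

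**Figure D5:**
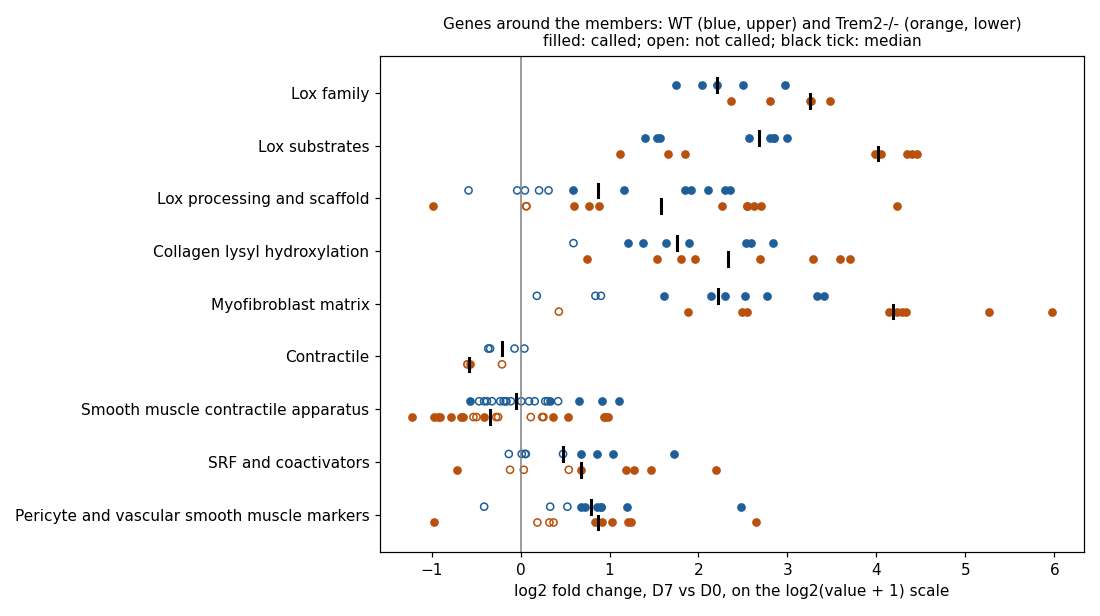
Points are the log2 fold changes of D7 against D0 of the genes of each list, WT in blue and Trem2-/- in orange, filled where called, with the list's median as a black tick. Substrates lie above 0 throughout (medians 2.68 in WT and 4.02 in Trem2-/-), and the contractile apparatus lies on both sides of 0 (medians -0.05 and -0.34).

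The counts of cell markers stand beside shares over all genes of 19.3% called higher and 18.2% lower in WT. In Trem2-/- these shares were 26.5% and 27.9%. Of 10 pericyte and vascular smooth muscle markers, 7 were called higher at D7 in WT (median 0.79), and 6 higher and 1 lower in Trem2-/- (median 0.87). The WT count was 4 without WT D0 replicate 2 or WT D7 replicate 1, and 9 without WT D0 replicate 1. Their summed level was 838 to 1785 CPM at WT D0 and 1688 to 2382 CPM at WT D7. Cspg4, a pericyte proteoglycan that cartilage cells share, had a log2 fold change of 2.48 in WT, Mcam 1.19, Pdgfrb 0.91 and Cox4i2 0.90, each with an adjusted p under 0.05 in limma. The 1 marker called lower, in Trem2-/-, was Myh11, which is also a gene of the contractile list. Its call was lost without Trem2-/- D0 replicate 2 or 4. Of the 7 endothelial markers none was called in either genotype, nor had any an unadjusted p under 0.05 in limma, and their median was 0.06 in WT. Of 9 fibroblast markers 5 were called higher and 1 lower in WT (median 1.01) and 6 higher and 1 lower in Trem2-/- (median 1.51). All 7 cartilage markers were called higher in both (medians 3.74 and 4.88), as were 4 of 5 osteoblast markers. Of 11 skeletal muscle markers 3 were called lower in WT (1 to 6 with single WT libraries left out) and 7 in Trem2-/-, and all 4 erythroid markers were lower in both. Of 7 macrophage markers 6 were called higher in WT, and 5 higher and 1 lower in Trem2-/-.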

How the data were processed

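Bulk libraries of knee joint cells were grouped by the genotype and injury state in their labels. The authors used STAR for alignment to mm10 (GRCm38) and featureCounts for the counts, and deposited signal values, CPM scaled by edgeR's TMM factors, with versions and strand setting not given in the sources used here. Of these values, 100% were whole multiples of 1 read within 0.01, so reads were recovered. A count of 3 reads is 0.101 to 0.250 CPM, for counting error only.

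The members and lists were chosen with earlier results of these data known. The 13173 genes that reached 1 CPM in 4 or more libraries were compared as log2(value + 1) in limma 3.58.1 (R 4.3.3, trend) with 4 groups as one factor, and adjusted over all genes. edgeR 4.0.16 quasi-likelihood on the recovered reads called 5024 genes in WT and 7279 in Trem2-/- for D7 against D0. On simulated counts for WT D7 against D0 (13047 genes), limma called 99% of 200 changed genes and 5.16% of the others. The simulated libraries were independent, with the same dispersion for every gene. These rates therefore need not hold for members that spread widely, such as the lysyl oxidases at WT D0 (SD of log2 values 1.06 to 1.39). Named genes are the members, Trem2, up to 4 genes per list with the largest change in WT, 3 defining markers per cell type and the 3 genes most like Lox and Acta2. Bmp1, Eln, Slc31a1, Atp7a, Thbs1, the further SRF partners and the further contractile and matrix genes were named after their values were seen. Two-sided permutation tests were exact. Alternatives were pseudocounts of 0.1 and 5, other filters and scalings, fewer groups in the fit, a replicate block, voom, edgeR and each library left out.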

Additional observations from a re-analysis of the deposited data

Results flagged for a closer look

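Loxl1 at Trem2-/- D7 had 1 library far from the other 3. Replicate 1 read 301 CPM and the others 221 to 228 CPM, and its gap to the nearest was 0.911 of the group's range, above Dixon's 95% critical value for 4 samples. Of 36 groups of member values tested this was the only one, and chance alone flags about 1 group in 20.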

How the results depend on the processing

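For D7 against D0 the 5 lysyl oxidases kept their direction and their call in all 260 alternatives, with log2 fold changes from 1.30 to 3.53. In WT, 5 members were called and passed adjustment without any 1 library (5 to 5). In Trem2-/-, 5 to 8 were called and 5 to 8 passed adjustment with 1 library left out. The 8 called came without Trem2-/- D0 replicate 1 or replicate 3 and with edgeR, and the 8 adjusted without replicate 3 and with edgeR. For Trem2-/- against WT at D7 the fit of only the groups compared gave 1 member (Lox) and each library left out 0 to 0. At D0 edgeR gave 5, and leaving out 1 library gave 1 to 5. For the interaction edgeR gave 1 and leaving out 1 library 0 to 4. The 5 and the 4 came without WT D0 replicate 2. Cnn1 in Trem2-/- D7 against D0 lost its call with voom, only the groups compared and median-of-ratios rescaling. With every library in, 428 results of single members kept call and direction under the other settings, 9 gained a call, 4 lost it and none turned direction.

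Signs turned only near 0 and only with 1 library left out. For D7 against D0, Acta2 (-0.071 to 0.19) and Cnn1 (-0.17 to 0.017) did so in WT and Acta2 (-0.50 to 0.060) in Trem2-/-. For Trem2-/- against WT they were Loxl4 (-0.38 to 0.13) and Tagln (-0.0088 to 0.13) at D7, and Loxl1 (-0.65 to 0.16) and Myl9 (-0.096 to 0.50) at D0. For the interaction they were Loxl3 (-0.012 to 0.97), Acta2 (-0.54 to 0.017), Tagln (-0.53 to 0.010) and Myl9 (-0.56 to 0.041).

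Deviations of libraries of the same number had a median r of 0.07 (-0.51 to 0.41, 11 of 24 pairs over 0.1). Libraries of different numbers had a median of -0.01. No pairing by number was seen, but cell mixture also enters these values, so a shared batch cannot be told from them. With the replicate block, 5 members were called in each genotype for D7 against D0, the Cnn1 call in Trem2-/- being lost, and between genotypes 0 were called at D7, 1 at D0, and the interaction had 0.

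Over all genes, Trem2-/- against WT at D7 had 753 called and 1366 with only the groups compared. At D0 it had 283, against 149 with only the groups compared, 164 with a pseudocount of 5 and 466 with edgeR. In WT, 3752 genes passed adjustment and 1736 with only the groups compared.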
